A study of Mus musculus with 6 samples.

Results

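Fibroblast sub-cluster 9 is a group of 93 cells, of 25428 cells in all, from cultures of the back of the mouse eye, which hold retinal pigment epithelium (RPE, a sheet of pigmented cells that nourishes photoreceptors) and choroid (the layer of vessels outside it). Its members are the cells that the study's own annotation numbers 9 among the fibroblast sub-clusters, and 23256 cells carry such a number. The study compared Dram2 wt/wt with Dram2 ko/ko mice to ask what the loss of Dram2, a gene of a lysosomal membrane protein, does to these cells. There were 3 samples of each genotype, labelled Dram2 WT and Dram2 KO, from male C57BL/6J mice of 12 to 16 months. The ko/ko mice carried a constitutive CRISPR/Cas9 deletion in every cell, and no other allele or agent was named in either group. The eye tissue was dissociated and grown in culture before sequencing, and the labels name the tissue as choroid. Whether a sample was 1 mouse or a pool was not given in the sources used here, so the spread between samples may be in part technical. Batch 1 of the labels took in 5 samples, and batch 2 held Dram2 ko/ko replicate 3 alone.

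RNA was measured by single-cell RNA sequencing of 3′ ends, in which each molecule carries a unique molecular identifier (UMI) and is counted once. The 6 samples held between 96808998 and 122746184 UMIs in all. Sub-cluster 9 held between 106599 and 1058337 UMIs per sample, so 1 UMI was worth between 0.945 and 9.38 CPM, the count scaled to 1000000 UMIs. Levels are CPM of the UMIs summed over the cells of a sub-cluster in a sample. They are compared with sub-clusters 1 to 4, which are the ones with over 1000 cells (9965, 6179, 3790 and 1558). The cells were grouped by their expression, so differences between sub-cluster 9 and the others are descriptions and carry no test.

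Interferons are secreted proteins that warn cells of infection. They bind receptors at the surface, Janus kinases then phosphorylate STAT proteins, and these with IRF9 switch on many genes, often through a promoter element called the interferon-stimulated response element (ISRE). The products degrade viral RNA, block translation, tag proteins with ISG15, break open the vacuoles of microbes, and include IRF7 and IRF9, which act in the pathway itself.

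Interferon-response genes set sub-cluster 9 apart. A gene was called leading where its level was at least 4-fold above that of each of sub-clusters 1, 2, 3 and 4 in every sample with 10 or more cells of sub-cluster 9. There were 3 such samples, Dram2 wt/wt replicates 2 and 3 and Dram2 ko/ko replicate 3, and folds were taken on CPM + 5. Of 6427 genes with 20 CPM or more and a UMI in 25% or more of the cells of sub-cluster 9, 19 passed (0.296%). With a pseudocount of 20 CPM 9 passed, and at 2-fold 41 (0.638%). In order of their smallest fold they included Ifit3, Ifit3b, Gbp2, Ifit1, Ifi44, Isg15, Cxcl10, Gbp3, Trim30a, Irf7, Usp18, Tor3a, Iigp1, Samd9l, Gbp7, Rtp4, Oasl2 and Zbp1. Of the 19, 16 stand on the interferon lists used here, and the other 3 are Trim30a, Tor3a and Samd9l. Of the 6427 genes, 25 are on the list of 28 interferon-response genes and 46 on the role lists described below. The lists were chosen with earlier results of these data known, so these counts are a description. The genes just outside the threshold included Ifih1 (3.78-fold), Sp100 (3.66), Rnf213 (3.64), Rsad2 (3.57) and Oasl1 (3.26). The 19 and the next 6 in the order make up the 25 leading genes described here. With the fold asked of all 6 samples, a rule chosen after seeing the data, 19 genes also passed. No gene of 5761 tested in the other direction was 2-fold below each of the 4 sub-clusters.

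Ifit3, whose product belongs to a family that binds viral RNA and restrains its translation, led the order. It stood at 634, 992 and 581 CPM in the 3 Dram2 wt/wt samples and at 969, 994 and 959 CPM in the 3 Dram2 ko/ko samples. In sub-cluster 1 its 6 samples lay between 1.62 and 4.40 CPM, and in sub-cluster 3, the next highest, between 3.09 and 22.1 CPM. Every sample of sub-cluster 9 was thus above every sample of the others, and the smallest fold to the highest of the 4 in the same sample was 21.7. Its neighbour Ifit3b stood at 244, 186 and 146 CPM in wt/wt and at 250.1, 141 and 182 CPM in ko/ko, against at most 0.694 CPM in sub-cluster 1. Ifit1 varied more, with 643, 1252 and 481 CPM in wt/wt and 920.4, 1604 and 1074 CPM in ko/ko. Its 6 samples of sub-cluster 1 lay between 0.726 and 8.96 CPM.

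Isg15 encodes a ubiquitin-like protein that is joined to other proteins during the response. It stood at 1340.1, 1739 and 1971 CPM in the wt/wt samples and at 2098, 1904 and 1710.3 CPM in the ko/ko samples. Sub-cluster 1 had between 8.26 and 35.8 CPM and sub-cluster 3 between 29.1 and 147 CPM, so no sample overlapped. Its smallest fold was 11.3. The 19 genes together took between 0.487% and 0.783% of all UMIs of sub-cluster 9, sample by sample, and between 0.00560% and 0.0133% in sub-cluster 1. In sub-cluster 3 they took between 0.0147% and 0.0427%, and in sub-clusters 2 and 4 at most 0.0120% and 0.0221%.

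**Figure D1:**
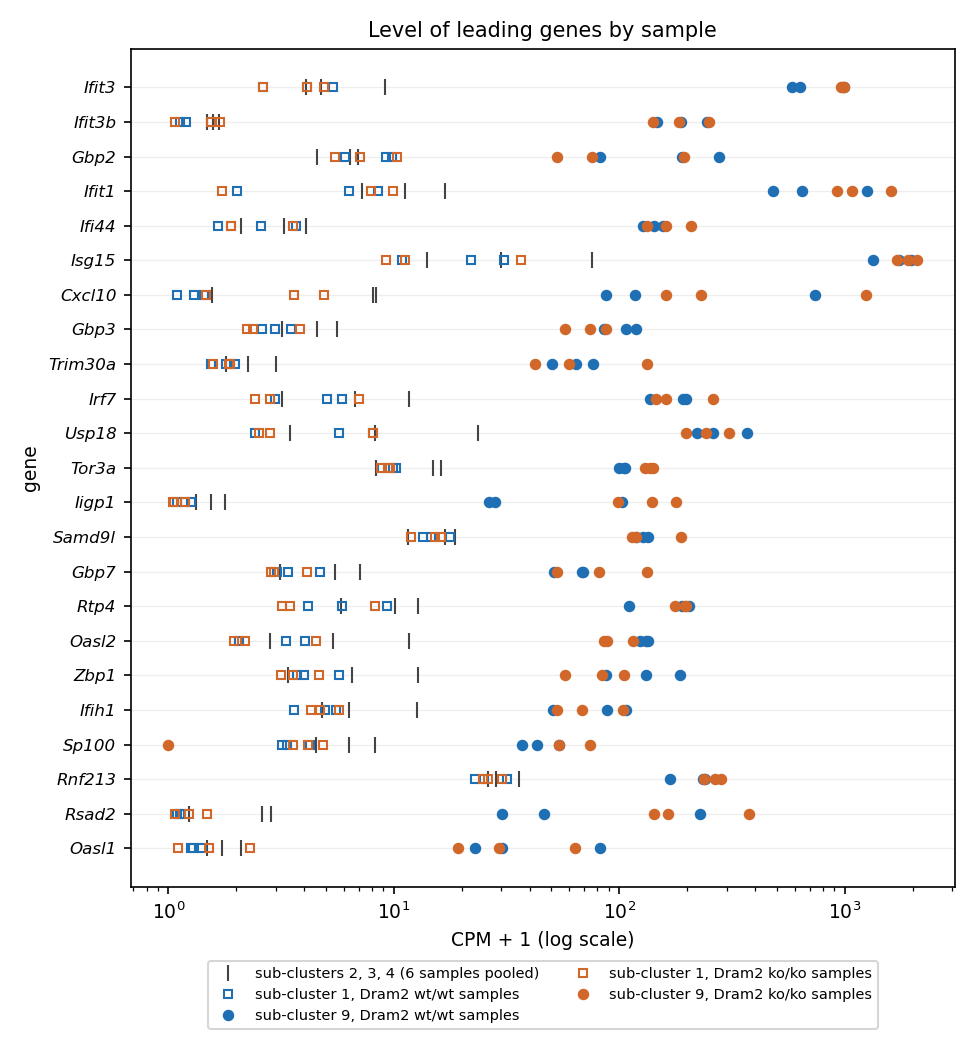
Level of the leading genes named in the text, 1 row a gene in order of the smallest fold, as CPM + 1 on a log axis. Filled circles are the 6 samples of sub-cluster 9, open squares the 6 samples of sub-cluster 1 and black ticks sub-clusters 2, 3 and 4 with samples pooled. Sub-cluster 9 lay to the right of sub-cluster 1 in every row, apart from Sp100 in Dram2 ko/ko replicate 2, which had 0 UMIs among 7 cells.

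Promoters of the leading genes shared sequence that the choice of the genes did not use. RefSeq promoters of GRCm38.p6, 250 bases before to 50 after each start, were found by symbol for 13 of the 19 genes. The core of the ISRE was searched as GAAANNGAAA on both strands, where overlapping matches each count. It was in the promoters of 9 of the 13 genes (69.2%). The share was 3.96% of the 4952 matched genes past the level filter and 3.99% of all 27025 genes of the table. The 9 include Ifit3, Ifit3b and Ifit1 on chromosome 19 and Gbp2, Gbp3 and Gbp7 on chromosome 3. These are related neighbours, so the 9 are not independent. The core of the gamma-activated site, TTCNNNGAA, an element of genes that interferon gamma induces, was in 1 of the 13 (7.69%), Gbp7, against 7.35% of the genes past the filter. A match describes the letters only. No match was found within these windows for Ifi44, Irf7, Samd9l and Oasl2.

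The stretches of 5 of the 19 genes and of Rsad2 that hold the core are shown 5′ to 3′ on the strand of the gene, with each match in capitals, for genes with values given sample by sample here and a stretch that ends before the annotated start. Starts are those of GENCODE M21.
Ifit3, chr19:34583353-34583436, plus strand: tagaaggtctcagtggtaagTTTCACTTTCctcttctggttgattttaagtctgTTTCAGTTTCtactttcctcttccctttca
Ifit3b, chr19:34607749-34607832, plus strand: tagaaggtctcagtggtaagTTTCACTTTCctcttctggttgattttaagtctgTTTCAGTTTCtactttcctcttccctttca
Ifit1, chr19:34640765-34640844, plus strand: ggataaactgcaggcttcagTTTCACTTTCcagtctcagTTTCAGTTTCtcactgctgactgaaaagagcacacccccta
Isg15, chr4:156200837-156200916, minus strand: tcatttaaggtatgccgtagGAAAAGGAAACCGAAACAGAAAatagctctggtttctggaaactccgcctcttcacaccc
Cxcl10, chr5:92349043-92349122, minus strand: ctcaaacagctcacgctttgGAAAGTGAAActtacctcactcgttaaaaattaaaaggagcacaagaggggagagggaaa
Rsad2, chr12:26456513-26456592, minus strand: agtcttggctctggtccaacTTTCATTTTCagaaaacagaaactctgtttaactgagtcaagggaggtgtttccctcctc
The stretches of Ifit3 and Ifit3b are identical over 84 bases, with 2 matches at the same places. Ifit1 also holds 2 matches, and Isg15 holds 3 that overlap in a single run. Ifit3 (chr19:34583531-34588731), Ifit3b (chr19:34607970-34613401) and Ifit1 (chr19:34640871-34650009) lie on the plus strand of chromosome 19 in a cluster of IFIT genes, with Ifit1bl1 and Ifit1bl2 between them on the minus strand.

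Reads at 3′ ends cannot always be given to 1 gene. Among words of 31 bases taken from the final 400 bases of each transcript, 22.7% of those of Trim30a also occur in transcripts of Trim30d, so the count of Trim30a is uncertain. For Ifit3b the largest share with another gene was 4.75% and for Isg15 7.57%.

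The pathway was followed through 99 genes in 14 roles, from ligand to effector, of which 46 passed the level filter. Of 30 ligand, receptor and kinase genes 6 passed the filter, 0 were leading, and 0 were above each of sub-clusters 1 to 4 in all 6 samples. Of the 69 other genes 40 passed, 14 were leading, and 35 of those past the filter were above in all 6 samples, as were Socs1, Dhx58, Mx2, Oas3 and Gbp5 below it. Over all 6427 genes past the filter 19 (0.296%) were leading and 86 (1.34%) were above in all 6 samples. The filter is on levels in sub-cluster 9 itself, so a gene that is low elsewhere could pass only by being high there, and the cells were grouped by these genes. The counts are a description and support nothing further.

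No interferon RNA was found in sub-cluster 9. The 18 type I genes, among them Ifnb1, which fibroblasts make on viral infection, and the 3 type II and III genes all had 0 UMIs in its 93 cells. A count of 0 allows up to 3 UMIs, which is between 2.83 and 28.1 CPM per sample. In the whole series of 25428 cells Ifnb1 had 1 UMI, in a cell of sub-cluster 1 of Dram2 wt/wt replicate 3, and Ifng had 0. Ifnz had 50 UMIs in 49 cells, none in sub-cluster 9. Ifnz shares 52.2% of its 3′ words with Gm13290, and several Ifna genes share up to 40% with each other, so UMIs of these genes cannot be placed with certainty.

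No receptor gene stood apart from the other fibroblasts in every sample. Ifnar1, a chain of the type I receptor, had 9.05, 17.2 and 20.8 CPM in the wt/wt samples and 13.9, 9.38 and 25.2 CPM in the ko/ko samples. Sub-cluster 1 had between 17.5 and 22.2 CPM, inside that range. The partner chain Ifnar2 lay between 47.0 and 122 CPM, around the 71.7 to 75.7 CPM of sub-cluster 1. Ifngr1 and Ifngr2, which form the interferon gamma receptor, had median log2 ratios to sub-cluster 1 of -0.01 and 0.03. Ifnlr1, the specific chain of the type III receptor, had 1 UMI in sub-cluster 9. The kinase Jak1 lay between 146 and 206 CPM against 154 to 185 CPM, and Jak2 between 18.8 and 45.4 CPM against 28.9 to 37.9 CPM. None of these genes was above each of the 4 sub-clusters in more than 2 of 6 samples.

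Among the transcription factors, levels parted for some genes and not for others. Irf7, which amplifies type I interferon production, stood at 190.1, 136 and 197 CPM in wt/wt and at 260.5, 159 and 145 CPM in ko/ko, against 1.43 to 6.02 CPM. Stat2 lay between 36.2 and 98.7 CPM against 5.001 to 10.0 CPM, and Irf9 between 37.5 and 52.8 CPM against 7.59 to 18.3 CPM. Both were above each of the 4 sub-clusters in 6 of 6 samples, with smallest folds of 2.00 and 1.15. Irf3, which is activated by phosphorylation and not by its own transcription, lay between 18.1 and 56.3 CPM, around the 35.6 to 40.0 CPM of sub-cluster 1.

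Feedback inhibitors were unequal. Usp18, which removes ISG15 and blocks the type I receptor, stood at 367, 221 and 259.8 CPM in wt/wt and at 306, 197 and 241 CPM in ko/ko, against 1.41 to 7.11 CPM. Its smallest fold was 5.67. Socs1, an inhibitor of Janus kinases, had 10.4 to 28.1 CPM against 6.22 to 7.55 CPM and a smallest fold of 1.10. Socs3, which acts mainly on cytokine receptors of the interleukin 6 family, was above each of the 4 in 0 of 6 samples.

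Sensors of foreign nucleic acid and their adaptors did not move as a whole. Zbp1, a sensor of left-handed nucleic acid that can start necroptosis, had 186, 86.2 and 130.4 CPM in wt/wt and 104, 56.3 and 82.6 CPM in ko/ko, against 2.16 to 4.74 CPM. The double-stranded RNA sensor genes Ifih1, Ddx58 and Tlr3 had smallest folds of 3.78, 2.39 and 2.74. Each of these 4 was above the other sub-clusters in 6 of 6 samples. The DNA sensor gene Cgas was not, with 6.28 CPM over all cells and above in 0 of 6 samples. It rested on 20 UMIs, with 4.53 to 9.38 CPM against 3.66 to 5.16 CPM in sub-cluster 1. The highest of the 4 was sub-cluster 2, at 16.4 CPM over all cells, where 98.7% of cells are named Fibroblast proliferating. Among the adaptors, Mavs was above in 0 of 6 samples and Tmem173, the gene of STING, in 2 of 6. The levels of these 2 adaptors, 0 to 17.2 and 22.9 to 56.3 CPM, compare with 13.9 to 19.3 and 29.2 to 39.6 CPM in sub-cluster 1.

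**Figure D2:**
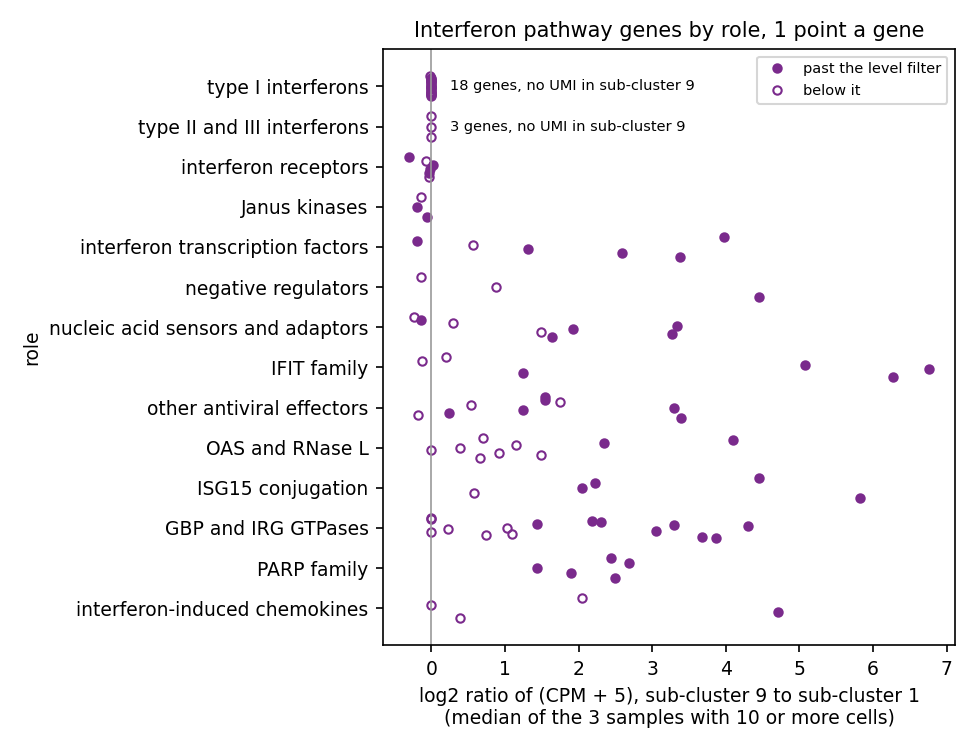
Log2 ratio of (CPM + 5) in sub-cluster 9 to sub-cluster 1, the median over the 3 samples with 10 or more cells, for genes of the interferon pathway by role. Filled points passed the level filter and open points did not. Receptors and Janus kinases lay at or below 0.03, while IFIT genes past the filter reached 6.76.

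Antiviral effectors ranged widely. Of 6 IFIT genes 4 passed the filter, 3 were leading, and all 4 were above each sub-cluster in all 6 samples. The fourth was Ifit2, with 95.1, 111 and 25.5 CPM in wt/wt and 17.4, 37.5 and 33.3 CPM in ko/ko, against 9.66 to 11.4 CPM. Bst2, or tetherin, which holds budding virus on the cell surface, was already present in other fibroblasts at 72.3 to 93.9 CPM in sub-cluster 1 and 167 to 244 CPM in sub-cluster 3. It reached 1526, 1033 and 1326 CPM in wt/wt and 1691, 1501 and 748 CPM in ko/ko. Ifitm3, which stops viral entry from endosomes, was likewise abundant everywhere. It lay between 2458 and 3884 CPM, against 987 to 1281 CPM in sub-cluster 1 and 1542 to 1918 CPM in sub-cluster 4, with a smallest fold of 1.42.

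Mx genes encode dynamin-like antiviral GTPases, and the copies that C57BL/6 mice carry are known to be defective. The annotation lists Mx2 as a polymorphic pseudogene. Mx1 had 1.88 CPM over all cells of sub-cluster 9 and a UMI in 5.38% of them. Mx2 had 18.1, 6.27 and 12.3 CPM in wt/wt and 24.3, 28.1 and 28.7 CPM in ko/ko, against at most 0.311 CPM in sub-cluster 1, and it did not reach the 20 CPM of the filter over all cells. The genotypes did not overlap, with a log2 fold change of 1.40 ± 0.40 (SE) and an adjusted p of 0.433 by voom-limma.

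Guanylate-binding proteins and immunity-related GTPases attack the vacuoles of intracellular microbes. Of 15 such genes 8 passed the filter, 4 were leading (Gbp2, Gbp3, Gbp7 and Iigp1), and these 8, with Gbp5 below the filter, were above in all 6 samples. The shares over all genes past the filter were 0.296% leading and 1.34% above in all 6 samples. Here too the filter on levels in sub-cluster 9 makes the counts a description. Gbp2 stood at 81.5, 188 and 276 CPM in wt/wt and at 52.1, 75.0 and 193 CPM in ko/ko, against 4.51 to 9.37 CPM in sub-cluster 1. The highest ko/ko sample was above 2 of the wt/wt samples. Irgm1, a regulator of these GTPases, was present in other fibroblasts too, with 75.6 to 196 CPM against 26.9 to 48.0 CPM and a smallest fold of 1.64.

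Genes of the OAS family, some of which make the nucleotide 2-5A, and of RNase L, which 2-5A switches on, were mostly below the filter. Of 9 genes 2 passed the filter, Oasl2 and its relative Oasl1. Below it, Oas3 had 10.1 CPM over all cells against 0.0538 CPM in sub-cluster 1, and was above each of the 4 sub-clusters in 6 of 6 samples. Oas1b had 10.7 against 0.39 CPM and was above in 5 of 6, while Oas1g had 1 UMI. Oasl2 had 122, 130.1 and 133 CPM in wt/wt and 115, 84.4 and 87.2 CPM in ko/ko, against 0.959 to 3.54 CPM. The wt/wt and ko/ko samples did not overlap. Between genotypes its log2 fold change was -0.43 ± 0.21 (SE), with an adjusted p of 0.886 by voom-limma. All 5 PARP genes of the list passed the filter, with smallest folds between 1.23 and 3.05. Of the 5, 3 were above in all 6 samples, where 1.34% of all genes past the filter were. That count is likewise a description.

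Cxcl10, a chemokine that draws activated T cells, was carried by a minority of the cells. It had 86.0, 739.6 and 116 CPM in the wt/wt samples and 159.8, 1238 and 228 CPM in the ko/ko samples, against 0.0936 to 3.92 CPM in sub-cluster 1. Its UMIs came from 35 of 93 cells (37.6%), and the highest single cell held 190 of 991. The relatives Cxcl9 and Cxcl11, ligands of the same receptor, had 2.51 and 0.628 CPM over all cells. Cells with Cxcl10 had a median interferon score, computed without Cxcl10, of 87.1, against 56.2 in those without it, and the order was the same within each of the 6 samples. Some of these splits were of few cells. They were 1 with and 4 without in Dram2 wt/wt replicate 1, and 2 and 3 in Dram2 ko/ko replicate 1. In Dram2 ko/ko replicate 2 they were 4 and 3. With samples pooled, the cells with Cxcl10 also held more UMIs, with medians of 37727 and 31140. They held fewer in Dram2 ko/ko replicates 1 (40199.5 against 68472) and 2 (11296.5 against 22068). The part of depth in this was not tested.

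The interferon score of a cell is the number of its UMIs from a list of 28 interferon-response genes per 10000 UMIs. In sub-cluster 9 it ran from 20.3 to 227 with a median of 69.2. The medians of sub-clusters 1, 2, 3 and 4 were 1.77, 1.49, 3.801 and 2.17. By sample the median of sub-cluster 9 was 69.0, 71.0 and 59.4 in wt/wt and 92.3, 105.9 and 69.1 in ko/ko. The lowest ko/ko sample lay between the wt/wt samples, so the genotypes overlapped. A typical cell of sub-cluster 9 had UMIs of 17 of the 19 leading genes, and the range was 8 to 19. In sub-clusters 1, 2, 3 and 4 the median was 1, 1, 2 and 1.

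**Figure D3:**
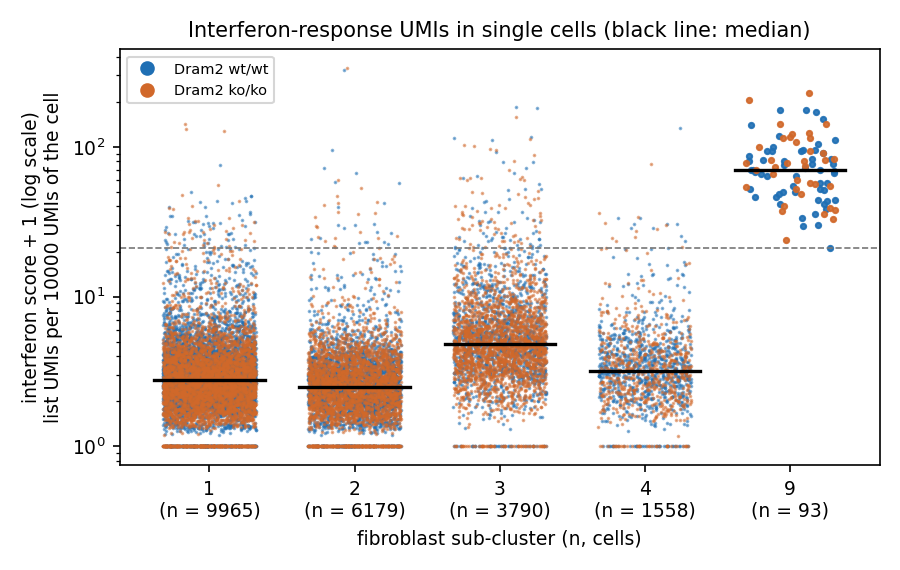
Interferon score + 1 of single cells on a log axis, by fibroblast sub-cluster, with 1 point a cell, colour for genotype and a black line for the median. The dashed line marks the lowest score of sub-cluster 9, 20.3, and 96, 42, 130 and 21 cells of sub-clusters 1, 2, 3 and 4 reach it.

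A high score was not limited to sub-cluster 9. Outside it 330 cells reached the lowest score of its members, which is 1.30% of those cells, and 32 reached its median. Sub-cluster 9 thus held 22.0% of the 423 cells at or above that score. Sub-cluster 3 had 130 such cells (3.43% of its cells), sub-cluster 1 had 96 (0.963%), sub-cluster 2 had 42 and sub-cluster 4 had 21. A further 17 were named RPE (1.14%) and 5 of 84 were named Myeloid (5.95%). The highest score of all, 334, belonged to a cell of sub-cluster 2. Of the 330 cells outside, 181 had UMIs of 10 or more of the 19 leading genes, against 92 of the 93 members. Their median score was 29.9 and their median depth 21738.5 UMIs, against 32064 UMIs in sub-cluster 9. Over all cells the share at or above the lowest score of sub-cluster 9 was 0.811%, 1.67% and 2.59% in the wt/wt samples and 0.935%, 0.782% and 3.36% in the ko/ko samples.

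Detection per cell showed the same contrast at equal depth. Ifit3 had a UMI in 93 of 93 cells (100%) and in 5.33% of the cells of sub-cluster 1, whose median depth was 27032 UMIs. With every cell thinned to 10000 UMIs, which left out 4 and 995 shallower cells, the shares were 94.4% and 2.30%. Cells named RPE, of another lineage and with a median depth of 22905.5 UMIs, gave 3.72%. How much of either low share is free RNA was not tested. Isg15 was found in 96.6% of thinned cells of sub-cluster 9, in 7.27% of sub-cluster 1 and in 25.1% of sub-cluster 3. Rsad2, whose product viperin blocks viral RNA synthesis, was found in 29.2%, 0.167% and 0.933%, and Iigp1 in 41.6%, 0.190% and 0.483%.

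The cells were fibroblasts by name and expressed most fibroblast markers. The deposited annotation named 88 of the 93 Fibroblast, 3 Fibroblast 2 and 2 Fibroblast proliferating. Of 10 fibroblast markers 7 passed the level filter, and their sum lay between 4527 and 7410.3 CPM, against 4273 and 5297 CPM in sub-cluster 1. Mgp, which keeps matrix from calcifying, had 2363, 3364 and 2771 CPM in wt/wt and 3584, 4306 and 3859 CPM in ko/ko, which do not overlap. Its log2 fold change between genotypes was 0.47 ± 0.18 (SE), with an adjusted p of 0.718 by voom-limma. Dcn, the gene of the proteoglycan decorin, ranged from 131 to 1389.9 CPM in sub-cluster 9 and from 426 to 545 CPM in sub-cluster 1. The extremes came from samples of 7 and 5 cells, but Dram2 ko/ko replicate 3, with 25 cells, also had 1363 CPM. Dpt had 0 UMIs in both, and Pi16 had under 1 CPM. The proliferation gene Mki67 was found in 2 cells. Of 8 smooth muscle markers, which contractile fibroblasts also express, 7 passed the filter. They summed to 9552, 18828 and 15887 CPM in wt/wt and to 9899, 13659 and 25660 CPM in ko/ko, below sub-cluster 1 of the same sample in 6 of 6, where the sums were 22413 to 26817 CPM. Acta2, the gene of smooth muscle actin, had 9303 CPM over all cells against 12176 CPM.

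Markers of immune cells, which answer interferon strongly, were below the level filter. The 10 myeloid markers summed to between 0 and 79.9 CPM per sample, against 13.4 to 25.5 CPM in sub-cluster 1. The sum was above that of sub-cluster 1 in 5 of 6 samples, with UMIs of 8 of the 10, and Ptprc and Adgre1, which define leukocytes and macrophages, had 0 UMIs. All 7 markers of T and NK cells had 0 UMIs. The sum of 79.9 CPM was that of Dram2 ko/ko replicate 1, where sub-cluster 1 had 19.6 CPM. The part of these markers in the results was not tested. None of the cell type lists used here had a member past the level filter that was 2-fold above each of sub-clusters 1 to 4. Library quality was that of other fibroblasts too. The median depth was 0.887 to 1.16 times that of sub-cluster 1 in the same sample, mitochondrial RNA was 3.04% of UMIs against 2.86%, and 0 cells were called doublets (2 cells in one droplet), though the caller marked too few cells in the series to have worked. Of the 93 cells 2 were among the 5% of highest doublet scores. The deposited cell names are not 10x barcodes, so barcodes shared between libraries could not be counted.

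Of sub-clusters 1 to 4, sub-cluster 9 was closest to sub-cluster 1 across genes. Over 7860 genes, the correlation of log2(CPM + 5) with sub-cluster 1 was the highest of the 4 in each of 6 samples, and 0.970 with samples pooled, against 0.894, 0.937 and 0.940 for sub-clusters 2, 3 and 4. Without the 41 genes at 2-fold it was 0.986 over 7819 genes. The correlation is across genes, which are not replicates. The sums of sub-cluster 1 rest on more cells than those of the other sub-clusters, and the part of depth was not tested.

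Antigen presentation, which interferon also raises, was described with a list of 14 genes. Of these 8 passed the filter, 0 were 2-fold above each of the 4 sub-clusters, and the median log2 ratio to sub-cluster 1 was 1.13. The same median was 3.39 for the 25 genes past the filter on the interferon list. It was -0.02 over the 6504 genes that passed the filter or had 20 CPM or more in each of sub-clusters 1 to 4. Without the filter the medians were 0.967 over the 14 genes and 3.36 over the 28 of the interferon list. Over all 52636 genes, of which 33144 had no UMI in sub-cluster 9, it was 0. The filter is on levels in sub-cluster 9 itself, so these medians are a description. Psmb8, a subunit of the immunoproteasome, stood at 122 CPM over all cells against 12.0 CPM in sub-cluster 1. The peptide transporter gene Tap1 had 74.8 against 22.0 CPM, the class I gene H2-K1 306 against 120.3 CPM and B2m 1124 against 754 CPM. For H2-K1 and B2m the smallest log2 ratio to the highest of the 4 sub-clusters was -0.74 and -0.19, so another sub-cluster was higher in at least 1 of the 3 samples. Of the class II genes Cd74 and H2-Aa had 0 UMIs, and H2-Ab1 had 3.14 CPM against 4.13 CPM in sub-cluster 1. None of the other pathway lists, which cover matrix, stress, p53, cytokines, lysosome, autophagy and more, had a member 2-fold above or below each of the 4 sub-clusters.

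The lowest genes of sub-cluster 9 moved little. By the same ranking in the other direction they were Tfpi2, 2310033P09Rik, Tbx3, Flywch1, Cul4a, Ranbp2, Ankle2, Arl6ip6, Kat7 and Cd2ap, each under 2-fold. The direction turned for all but Ranbp2 under another setting, either with all 6 samples or with the mean of each cell's own CPM. Tfpi2, a protease inhibitor of the matrix, had 45.3, 21.9 and 32.1 CPM in wt/wt and 72.9, 216 and 24.1 CPM in ko/ko, against 41.6 to 94.3 CPM in sub-cluster 1. The sample at 216 CPM was above every sample of sub-cluster 1, and it was not among those that set the rank.

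Sub-cluster 9 was found in every sample, at under 1% of the cells. It held 5, 19 and 32 cells in the wt/wt samples, which is 0.139%, 0.480% and 0.786% of the cells with a fibroblast sub-cluster. It held 5, 7 and 25 cells in the ko/ko samples, which is 0.246%, 0.110% and 0.770%. The means were 0.468% ± 0.323 and 0.376% ± 0.349 (SD, n = 3 each), and their difference, -0.0928 points, had p = 0.7 in an exact two-sided permutation test, whose smallest possible p is 0.1. The genotypes overlapped. The 95% Wilson intervals, which cover counting error only, ran from 0.0595% to 0.325% in Dram2 wt/wt replicate 1 and from 0.557% to 1.11% in replicate 3 and did not meet. The only sample of batch 2, at 0.770%, was the highest of its genotype. Without it the ko/ko mean was 0.178%, the difference -0.290 points and the exact p 0.3.

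**Figure D4:**
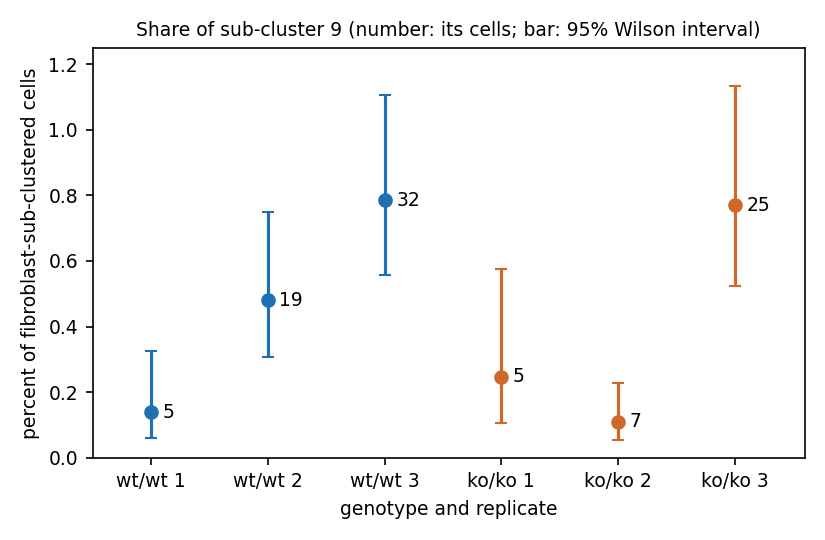
Share of sub-cluster 9 among cells with a fibroblast sub-cluster, in percent, 1 point a sample, with 95% Wilson intervals as bars and the number of cells beside each point. The shares of both genotypes cover nearly the same range, from 0.139% to 0.786% in wt/wt and from 0.110% to 0.770% in ko/ko.

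The targeted gene was looked at before other genotype effects. Dram2 had 27.2, 40.7 and 40.6 CPM in the wt/wt samples and 20.8, 28.1 and 27.5 CPM in the ko/ko samples of sub-cluster 9, which overlap. In sub-cluster 1, with far more cells, it lay between 35.8 and 43.1 CPM in wt/wt and between 30.8 and 34.8 CPM in ko/ko, without overlap. Per the study's methods the deletion removes a single exon, and reads come from 3′ ends, so the RNA level does not check the knockout.

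Genotypes were compared on UMIs summed per sample. Since 2 wt/wt samples and 1 ko/ko sample had 10 or more cells, sums of 5 or more cells were used, which kept all 6 samples. By voom-limma with Benjamini-Hochberg adjustment 0 of 6389 genes passed an adjusted p of 0.05 (0%). At an unadjusted p under 0.05 there were 384 (6.01%). The same comparison gave 5 genes by edgeR's quasi-likelihood test, all lower in ko/ko (Ankrd1, Wdr89, Gm7808, Rps19-ps6 and Gm10269), and 11 by DESeq2. Of the 5, all but Ankrd1 were also lower in sub-cluster 1, where no ko/ko sample overlapped wt/wt. Wdr89 had 758 to 886 CPM there in wt/wt and 249 to 491 CPM in ko/ko. Genotypes were not tested here in sub-cluster 1 alone. Dram2 itself had a log2 fold change of -0.53 ± 0.31 (SE) and an adjusted p of 0.976.

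The 25 leading genes showed no common direction by genotype. Of these 15 were higher and 10 lower in ko/ko, where 49.9% of all genes tested were higher, with a median log2 fold change of 0.10 and a range from -0.68 to 1.83, beside a median of -0.000287 over all genes tested. None passed the adjusted test, 2 had an unadjusted p under 0.05, and 2 (8%) had genotypes that did not overlap, against 9.66% of all genes tested. Ifit3 differed by 0.44 ± 0.21 (SE) and Isg15 by 0.18 ± 0.18 (SE) on the log2 scale, with overlapping samples in both.

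The 2 genes with an unadjusted p under 0.05 were Rsad2 and Iigp1. Rsad2 had 226, 45.4 and 29.3 CPM in wt/wt and 163, 375 and 142 CPM in ko/ko, a log2 fold change of 1.83 ± 0.50 (SE) with an adjusted p of 0.359 by voom-limma. Dram2 wt/wt replicate 1 was above 2 of the 3 ko/ko samples, and 1 of its 5 cells held 43 of its 50 UMIs. Iigp1, a GTPase that loads onto parasite vacuoles, had 27.2, 102 and 25.5 CPM in wt/wt and 139, 178 and 97.5 CPM in ko/ko. Its log2 fold change was 1.497 ± 0.436 (SE) and its adjusted p 0.436 by the same fit. Dram2 wt/wt replicate 2 lay above Dram2 ko/ko replicate 3, so both genes overlapped between genotypes.

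The smallest adjusted p-values belonged to Wdr89, ribosomal protein genes, Cox7c and pseudogenes, named here after their values were seen. Wdr89 had the lowest, 0.054 by voom-limma, with a log2 fold change of -1.58 ± 0.22 (SE). Rps20, a protein of the small ribosomal subunit, had 521, 796 and 828 CPM in wt/wt and 379, 235 and 167 CPM in ko/ko of sub-cluster 9, with an adjusted p of 0.0903 by voom-limma. Sub-cluster 1 had 678, 729 and 748 CPM in wt/wt and 363, 232 and 189 CPM in ko/ko.

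Whether the genotype effect differed between sub-clusters 9 and 1 was asked by fitting both sub-clusters together in voom-limma, with a term for each sample and an interaction term. Of 16974 genes 0 passed (0%), and 652 (3.84%) had an unadjusted p under 0.05. The count filter could be met by the sums of sub-cluster 1 alone, while the fit of sub-cluster 9 alone took in 6389 genes. The adjustment and the share thus cover many genes with few UMIs in sub-cluster 9, and 0 passing says little about it. By edgeR's quasi-likelihood test 14 passed. The lowest p in both belonged to Ankrd1, a co-regulator that responds to stretch and to YAP, also singled out after its values were seen. It had 113, 158 and 218 CPM in wt/wt and 3.47, 0 and 24.1 CPM in ko/ko of sub-cluster 9, and the genotypes did not overlap. In sub-cluster 1 its level was 181 to 221 CPM in all 6 samples. The difference between the 2 genotype effects was -4.09 ± 0.61 (SE) on the log2 scale with an adjusted p of 0.357 by voom-limma, and -3.39 with an adjusted p of 1.11e-21 by edgeR. With 3 samples per genotype, a p of that size cannot be taken as a measure of the spread between samples. For Ankrd1 in sub-cluster 9 alone, edgeR's quasi-likelihood test of genotype gave an adjusted p of 0.0153. In sub-cluster 9 its UMIs came from 3 of 5, 7 of 19 and 15 of 32 cells in wt/wt. In ko/ko they came from 1 of 5, 0 of 7 and 6 of 25 cells. The ko/ko sums were 1, 0 and 21 UMIs, and the count of 0 in replicate 2 allows up to 28.1 CPM.

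**Figure D5:**
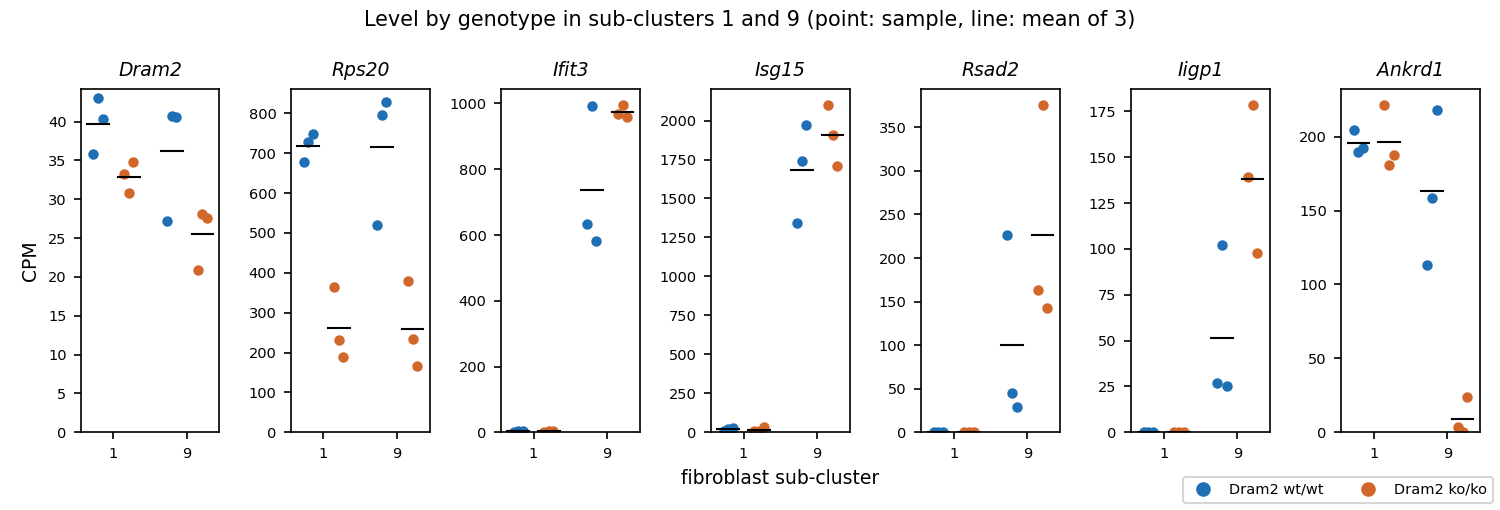
Level in CPM of 7 genes by genotype in sub-clusters 1 and 9, 1 point a sample, with a line at the mean of 3. Rps20 has ko/ko samples below the wt/wt samples in both sub-clusters (adjusted p 0.0903 in sub-cluster 9 by voom-limma, not tested here in sub-cluster 1). The interferon genes stand near 0 in sub-cluster 1. Of sub-clusters 1 and 9, Ankrd1 lies at 24.1 CPM or less only in the ko/ko samples of sub-cluster 9.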

How the data were processed

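The deposited files were a matrix of raw UMI counts (genes by cells, all 6 samples) and the authors' annotation, which gives the sample, a cell type name and, for fibroblasts, a sub-cluster number. Per the submitters' processing notes the counts came from Cell Ranger 3.1.0 and GRCm38. The libraries were 10x Genomics 3′ v2. The filters on cells and the gene annotation release were not given in the sources used here. Per the study's methods, clusters came from Seurat on log-normalised values integrated over batch. The authors' UMAP coordinates were not used here.

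From the counts, UMIs were summed per sample and sub-cluster and given as CPM. Folds used a pseudocount of 5 CPM. Genes had to reach 20 CPM and a UMI in 25% of the cells of sub-cluster 9. Genotypes were compared with voom-limma (limma 3.58.1, filterByExpr and TMM factors of edgeR 4.0.16, R 4.3.3), with edgeR's quasi-likelihood test and DESeq2 1.42.0 as alternatives, and shares with exact permutation tests. The design set a minimum of 10 cells per sum, but 1 ko/ko sample had that many, so a minimum of 5 cells, chosen after seeing the data, was used for the genotype fits. Scrublet in scanpy 1.11.5 scored doublets. The fits were tested on simulated data. Gene positions are those of GENCODE M21, promoters those of RefSeq. The members and the gene lists were chosen with earlier results of these data known. Named genes were the 25 with the largest smallest fold over samples, the 10 lowest, Dram2, Dram1, Mki67, Top2a, Mgp, Dcn and genes of the pathway lists. Some genes that the rule names are not reported here. In the genotype comparisons called genes would have been named, and others named there were chosen after their values were seen.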

Additional observations from a re-analysis of the deposited data

How the results depend on the processing

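The test of the share cannot pass 0.05 with 3 samples a genotype, and the direction was not stable. Leaving out each replicate in turn gave differences from -0.290 to 0.0659 points, and the sign turned positive when Dram2 wt/wt replicate 3 was left out (0.0659), and also for Dram2 ko/ko replicate 2 (0.0400). The number of leading genes was 9 with a pseudocount of 20 CPM, 41 at 2-fold and 6 at 8-fold, and 19 to 25 without each replicate in turn. The number of genes called by genotype in sub-cluster 9 was 0. It became 5 with edgeR, 11 with DESeq2, 1 (Wdr89) with DESeq2 size factors and 25 with no filter on low counts. It was 2 (Mmp13 and Cavin2) with batch as a covariate and 13 without the 5% of highest doublet scores. The last setting took out 2 cells of sub-cluster 9, 1 of them from the 5 cells of Dram2 ko/ko replicate 1. Leaving out replicates gave 0 to 16 called genes, namely 5 when Dram2 wt/wt replicate 1 was left out, 16 for Dram2 ko/ko replicate 1, 2 for Dram2 ko/ko replicate 3 and 0 for each of the others. Why these counts moved was not tested. With no filter Rsad2 passed, at 1.79 and an adjusted p of 0.00795 by voom-limma. With the filter it did not pass by edgeR's quasi-likelihood test (1.36) or by DESeq2 (1.20, adjusted p 0.999). The replicate block gave 6 called genes. Correlations between same-numbered wt/wt and ko/ko samples were 0.0716, -0.117 and 0.169, where pairs of unlike number ran from -0.274 to 0.232. Such correlations cannot tell whether the numbers pair the samples. With the block the share test had p = 0.75 by exact sign flips of 3 pairs, whose smallest p is 0.25. The interaction gave 14 genes with edgeR, 0 with sub-cluster 2, 3 or 4 in place of 1, and 0 without each replicate in turn. With all 6 samples in place of 3, an alternative chosen after seeing the data, the log2 ratio reversed for Sp100 (-1.27), Tfpi2 (1.73), Tbx3 (0.34), Flywch1 (0.0457), Ankle2 (1.47), Arl6ip6 (0.35), Kat7 (0.63) and Cd2ap (0.21). With the mean of each cell's own CPM it reversed for 2310033P09Rik (0.27) and Cul4a (0.0464). Of the other ratios of the named genes 59 moved by over 1 SD and 246 did not. A minimum of 20 cells per sum could not be fitted, since 1 sample per genotype reached it. Depth limits the small samples most, where 1 UMI is up to 9.38 CPM.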

Other observations

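Ccl5, a chemokine for T cells and monocytes, had 279 UMIs in sub-cluster 9, and these came from 4 cells of the Dram2 wt/wt samples, with 143, 72, 63 and 1 UMIs. In CPM that was 647, 113 and 60.5 in wt/wt and 0 in each of the ko/ko samples, where a count of 0 allows up to 3 UMIs, or 10.4, 28.1 and 3.44 CPM. The genotype difference had an adjusted p of 0.546 by voom-limma, and passed by DESeq2 (adjusted p 0.0103), with the replicate block (0.00444) and with no filter on low counts (0.000331). The first 3 of these cells ranked 12th, 9th and 3rd of 93 by interferon score, and the fourth ranked 80th. In sub-cluster 1 the gene had a UMI in 0.421% of the cells. The only cell of the series with a UMI of Ifnb1 had an interferon score of 3.03, where the median of its sub-cluster was 1.77. The median score of the 3 cells named Fibroblast 2 was 92.3, and the 2 cells named Fibroblast proliferating had scores of 58.7 and 170.4, within the range of the 88 cells named Fibroblast. Dram1, a relative of Dram2, had 22.6, 14.1 and 12.3 CPM in wt/wt and 17.4, 0 and 10.3 CPM in ko/ko, which overlap. Top2a, a gene of dividing cells, was found in 21.5% of the cells of sub-cluster 9, at 6.60 CPM against 10.2 CPM in sub-cluster 1 and 398 CPM in sub-cluster 2.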
